A study of Mus musculus with 278 samples.

Results

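The insulin-like growth factor (IGF) axis was followed through 10 genes in single cells from the mammary epithelium of FVB/NJ mice. The genes were chosen by name, without a rule on their values, though earlier results of these data were known. The list holds 6 IGF binding proteins (Igfbp2, Igfbp3, Igfbp4, Igfbp5, Igfbp6 and Igfbp7) and both receptor kinases (Igf1r and Insr). It also holds the insulin receptor substrates Irs1 and Irs2, which dock on the receptors. These genes are 10 of the 25137 genes with a symbol that were counted. Cells carried no transgene or treatment in the labels. They were basal cells and luminal cells sorted from adult glands, and total epithelium from pregnant animals taken at mid-pregnancy in the study's methods. The study names several mice for the adult basal captures and a pair of mice for the pregnancy captures. The basal gate took Lin- CD29hi CD24+ cells and the luminal gate Lin- CD29lo CD24+ cells. No animal is named for a cell, so each of the 3 groups counts as 1 sample and stage, sort and capture cannot be told apart. No test was run, and no difference below has a replicate check.

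IGF binding proteins hold IGF1 and IGF2 outside the cell and set how much of these ligands reaches the receptors. Igf1r encodes the receptor kinase for both ligands, Insr the insulin receptor, and Irs1 and Irs2 the adaptors that carry the signal of either receptor to the PI3K and AKT kinases. In the mammary gland, IGF signalling is known for its part in ductal growth, and Igfbp5 for its rise when milk secretion stops. In the ducts a contractile basal layer surrounds the luminal cells, which face the lumen and make the milk.

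Cells were retained with 50000 or more read pairs in counted genes ("reads" below), which kept 85 of the 112 cells of the adult basal sort, 41 of the 43 of the adult luminal sort and 96 of the 123 from pregnancy. Median reads per retained cell were 378525, 637903 and 215213. No 2 retained cells had identical counts. A level is given as CPM, the reads of a gene summed over a group and scaled to a common total, or also divided by transcript length as RPKM where genes are compared with each other. A gene was detected in a cell that had 1 or more of its reads after every cell was thinned to 50000 reads. All intervals are exact at the 95% level (Poisson for sums, Clopper-Pearson for shares) and cover counting error only, since amplified reads are not independent molecules. Each sort carried markers of its lineage, though not all markers set the sorts apart. Acta2, the smooth muscle actin of the basal layer, was detected in 85 of 85 adult basal and 2 of 41 adult luminal cells, and Prlr, the prolactin receptor of luminal cells, in 3 of 85 and 40 of 41. Of the basal keratins, Krt14 was detected in 83 of 85 and 9 of 41, and Krt5 in 77 of 85 and 1 of 41. The luminal keratins Krt8 and Krt18 were also detected in 56 and 39 of the 85 adult basal cells. Elf5, a progenitor marker, was detected in 1 of 85 and 7 of 41.

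Pregnancy cells, which were not sorted by lineage, were divided by the share of the study's basal and luminal gene lists they detected, with the IGF-axis and milk genes left out. Those at or above the 10th percentile of the adult basal sort on the basal list (18.3% of 197 genes), of the adult luminal sort on the luminal list (17.5% of 189 genes), on both lists or on neither made a basal class of 37 cells, a luminal class of 27, a mixed class of 30 and a rest of 2. These are ranges of a score and not cell types, and 9 of the 96 cells lay within 2 percentage points of a threshold. Some lineage markers were shared between the classes. In the luminal class Krt14 was detected in 18 of 27 cells and Acta2 in 11, and in the basal class Krt8 in 32 of 37 and Krt18 in 24. Others set the basal and luminal classes apart, namely Krt5 (32 of 37 and 1 of 27), Prlr (5 and 24) and Elf5 (2 and 16). With the study's own minimums, which drop 2 of the adult luminal cells, the basal and luminal classes held 55 and 22 cells. Milk genes took 34.4% of all reads in the luminal class and 1.58% in the basal class. The luminal class detected a median of 1 of 14 markers of mature luminal cells and 12 of 15 of luminal progenitors. In the adult luminal sort these medians were 9 and 8. Stage and this makeup cannot be told apart where the luminal class is compared with the adult luminal sort. Some cells carried 3 or more markers of a cell type outside the epithelium after thinning, namely 1 of 85 in the adult basal sort, 6 of 41 in the luminal sort and 23 of 96 in pregnancy. Cells marked for fibroblasts (connective tissue cells) were 0 of the adult basal, 6 of the adult luminal, 5 of the pregnancy basal class, 0 of the luminal class and 5 of the mixed class.

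Promoter sequences were matched in RefSeq (GRCm38.p6) for 9 of the 10 genes, Insr being the gene without an entry. Shown here are the 250 bases before an annotated transcript start of the 4 genes that were 4-fold or more higher in the adult basal than in the adult luminal sort, read 5′ to 3′ on the gene's strand. Capitals mark a GC box (GGGCGG, the site of Sp family factors) or an E-box (CACGTG), each searched on both strands. The Igfbp2 sequence is chr1:72824230-72824479 on the plus strand, before the first of its 2 annotated starts.
Igfbp2: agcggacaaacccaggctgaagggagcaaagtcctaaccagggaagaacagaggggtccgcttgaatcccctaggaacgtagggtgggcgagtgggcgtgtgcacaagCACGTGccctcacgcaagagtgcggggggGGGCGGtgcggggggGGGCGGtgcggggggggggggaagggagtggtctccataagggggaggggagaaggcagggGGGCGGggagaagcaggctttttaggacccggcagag
The Igfbp3 sequence is chr11:7213924-7214173 on the minus strand, before a transcript start that lies inside the full annotated span of the gene given below.
Igfbp3: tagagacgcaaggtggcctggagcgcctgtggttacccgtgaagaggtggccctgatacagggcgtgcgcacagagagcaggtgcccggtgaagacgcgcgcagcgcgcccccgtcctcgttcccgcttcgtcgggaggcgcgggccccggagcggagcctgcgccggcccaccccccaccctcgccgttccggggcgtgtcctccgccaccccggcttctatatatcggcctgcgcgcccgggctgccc
The Igf1r sequence is chr7:67952007-67952256 on the plus strand.
Igf1r: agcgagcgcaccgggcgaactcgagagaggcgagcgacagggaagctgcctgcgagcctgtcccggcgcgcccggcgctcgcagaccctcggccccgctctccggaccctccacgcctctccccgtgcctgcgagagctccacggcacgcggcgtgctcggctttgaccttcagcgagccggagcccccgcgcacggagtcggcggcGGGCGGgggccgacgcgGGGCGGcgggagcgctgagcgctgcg
The Irs1 sequence is chr1:82291440-82291689 on the minus strand.
Irs1: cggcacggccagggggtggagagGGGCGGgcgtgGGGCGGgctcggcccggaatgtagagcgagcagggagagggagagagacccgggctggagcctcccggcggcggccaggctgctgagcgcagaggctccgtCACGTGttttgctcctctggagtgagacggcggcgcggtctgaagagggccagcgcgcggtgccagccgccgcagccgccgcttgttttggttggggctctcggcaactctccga
All 4 were rich in G and C, at 67.2% for Igfbp2, 73.2% for Igfbp3, 77.6% for Igf1r and 72.4% for Irs1. Igfbp2 held 3 GC boxes and 1 E-box, Igf1r 2 GC boxes, Irs1 2 GC boxes and 1 E-box, and Igfbp3 neither motif. An E-box also lay before Irs2. Of all 32851 promoter windows of 300 bases in the table, 35.7% held a GC box and 7.15% an E-box. The letters TATAAA of the TATA box, searched on both strands, lay in the windows of Igfbp4 and Igfbp6 and in 13.6% of all windows. In Igfbp4 they lay 28 bases before the start on the gene's strand, and in Igfbp6 148 bases before it on the other strand. Variants of these letters were not searched. The interferon-gamma activated site that STAT factors bind (TTCNNNGAA) was in none of the 10 windows of these genes and in 8.30% of all windows.

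Igfbp5, which binds IGFs and the extracellular matrix, was by far the most abundant binding protein in both adult sorts and in the basal, mixed and luminal classes of pregnancy. Its gene (Entrez 16011) lies on chromosome 1 from 72858065 to 72874865 of GRCm38.p6. It lies 5590 bases from Igfbp2 (Entrez 16008, 72824480 to 72852474), and the ends of their transcripts face each other. In adult basal cells Igfbp5 ran from 0 to 25410 CPM in single cells with a median of 2421, and in adult luminal cells from 0 to 19333 with a median of 593. The ranges of both sorts overlapped over nearly their full width, and the highest luminal value was in cell 26, which was fibroblast-marked. Its summed level was 3353 CPM in the basal sort (95% interval 3334 to 3372) and 1735 in the luminal sort (1718.5 to 1751), a log2 ratio of 0.95 (0.93 to 0.97). Detection reached 81 of 85 in the basal sort (95.3%, 88.4 to 98.7) and 31 of 41 in the luminal sort (75.6%, 59.7 to 87.6). Pregnancy gave nearly the same picture, with 3263 CPM in the basal class and 1375 in the luminal class (log2 ratio 1.25). Within a lineage the stages were close with all cells, at a log2 ratio of pregnancy over adult of -0.04 for basal and -0.34 for luminal cells. The adult luminal sum joins unlike cells, at 3164 CPM in those with more progenitor than mature markers and 636 in those with more mature markers. The pregnancy luminal class, which detected mostly progenitor markers, lay between these levels. The 6 fibroblast-marked adult luminal cells held 48.0% of the luminal reads, at 5460 CPM against 1065 in the other 35. Without cells marked for another cell type, the luminal level was 1367 CPM in pregnancy and 1065 in the adult sort. The ratio of the adult sorts was then 1.68. Per transcript length, Igfbp5 made up 78.5% of the summed RPKM of the 6 binding proteins in adult basal cells, 73.3% in adult luminal cells, 67.7% in the pregnancy basal class and 95.1% in the pregnancy luminal class.

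**Figure D1:**
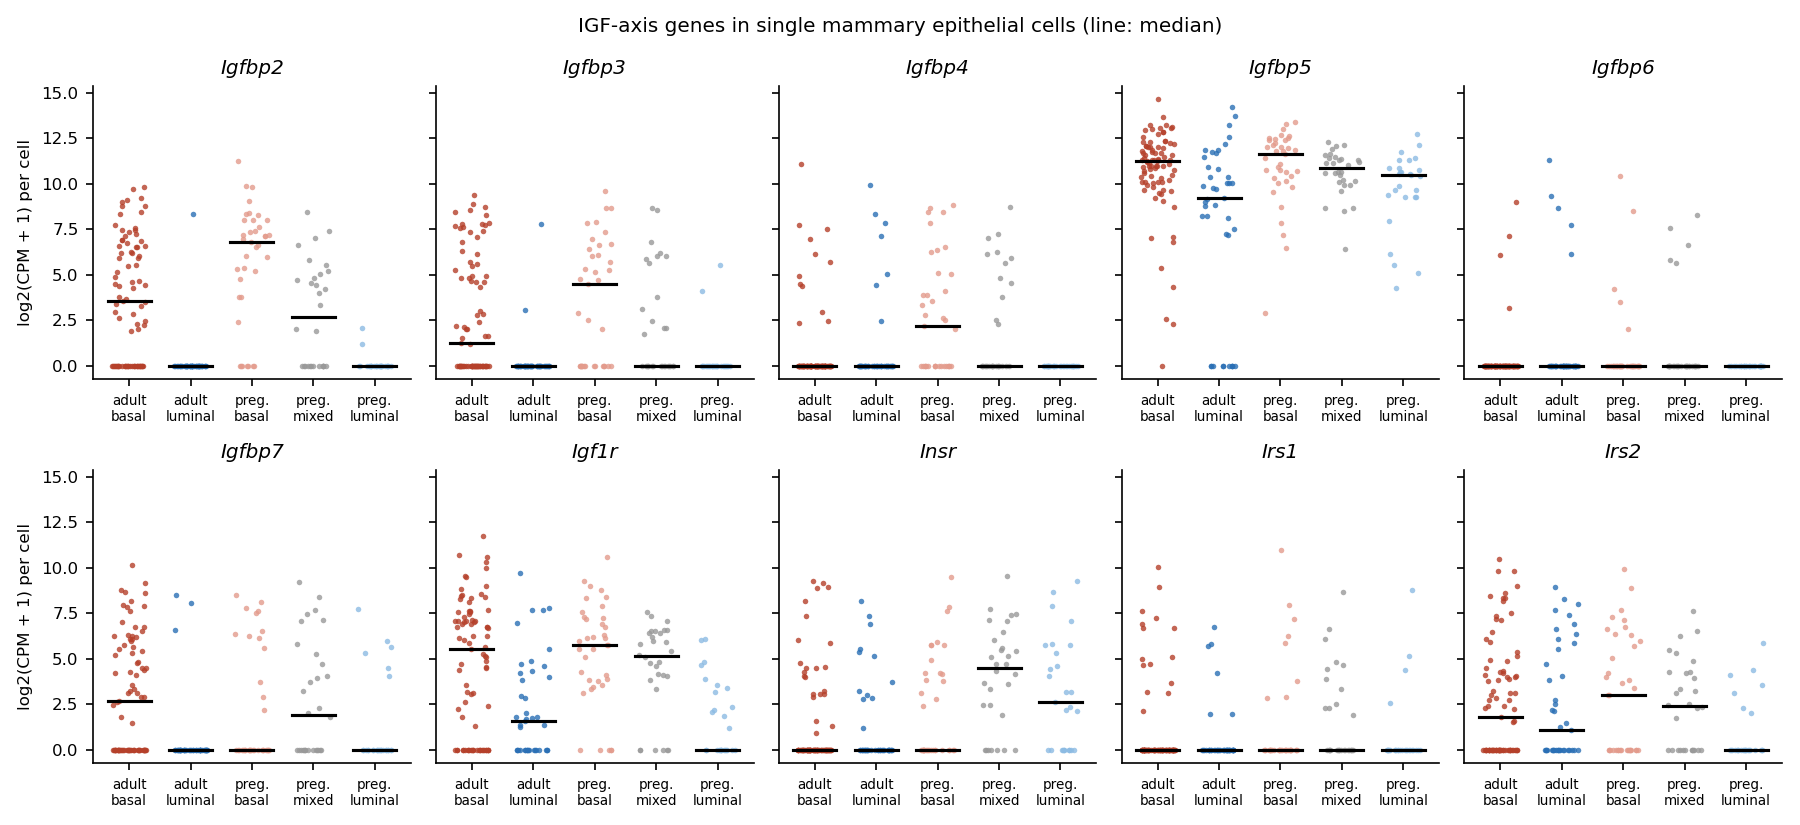
Each panel plots log2(CPM + 1) of 1 gene in single cells (points) for the adult basal (85 cells), adult luminal (41), pregnancy basal class (37), mixed class (30) and luminal class (27), with the median as a black line. Igfbp5 is high in all 5 groups, whereas Igfbp2 has a median above 0 in the basal and mixed groups and 1 adult luminal cell above 0.

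Igfbp2 and Igfbp3 were genes of the basal cells at both stages. Both are also on the basal list that the study took from other bulk samples (they were left out when cells were classed). Igfbp2 ran from 0 to 894 CPM in adult basal cells (median 10.9) and was at 0 in all adult luminal cells except cell 35, which had 328.9 CPM. Adult luminal cell 35 detected 9 of the 10 basal markers besides 7 of the 10 luminal ones. With that cell the log2 ratio of the adult sorts was 3.11 (2.91 to 3.30, 81.8 against 9.50 CPM). Without the cell with most reads on each side the luminal cells had no read left, and basal cells were at least 9.19 higher on the log2 scale. Among adult cells 39 of 85 in the basal sort detected Igfbp2 (45.9%, 35.0 to 57.0) and 1 of 41 in the luminal sort, and in pregnancy 28 of 37 of the basal class (75.7%, 58.8 to 88.2) and 10 of 30 of the mixed class. In the pregnancy luminal class it was detected in 0 of 27 cells, which allows a share of up to 11.1% taken as 3 cells, or 12.8% by the exact interval, and 3 reads in all gave 0.410 CPM against 171 in the basal class (log2 ratio 8.71, 7.16 to 11.0). In the basal lineage its level was higher in pregnancy, by 1.07 on the log2 scale (0.96 to 1.18), but by 0.15 with the study's minimums for cells and 0.38 with class thresholds at the 25th percentile.

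Igfbp3 (Entrez 16009, chromosome 11 from 7206086 to 7215498), a carrier of IGFs in the circulation, followed Igfbp2 at a lower level per length in basal cells (23.5 against 61.5 RPKM in the adult sort). It ran from 0 to 676 CPM in adult basal cells with a median of 1.37, and in adult luminal cells 96.9% of its 161 reads were in cell 35. The summed levels were 57.5 and 6.48 CPM, a log2 ratio of 3.15 (2.92 to 3.39), and 8.00 (6.77 to 9.62) without the cell with most reads on each side. It was detected in 30 of 85 adult basal, 1 of 41 adult luminal, 20 of 37 pregnancy basal-class and 2 of 27 luminal-class cells. The pregnancy classes were at 73.7 and 2.05 CPM, a log2 ratio of 5.17 (4.43 to 6.02). In the basal lineage the log2 ratio of pregnancy over adult was 0.36, and 0.07 with an interval of -0.11 to 0.25 without the cells with most reads. Igfbp2 and Igfbp3 were detected together in 11 of 85 adult basal cells, where independent detection at those shares would give 13.8, and in 16 of 37 cells of the pregnancy basal class, where it would give 15.1.

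Igfbp7, Igfbp6 and Igfbp4 owed most of their reads in the luminal sort to 6 cells, those with 3 or more of 6 fibroblast markers (Col1a1, Col1a2, Col3a1, Pdgfra, Dcn and Lum). Those 6 held 15.2% of the reads of the sort. They were adult luminal cells 5, 11, 26, 27, 33 and 43, and each also detected Krt8 or Krt18. These keratins were detected in many adult basal cells too, so they do not by themselves show a luminal identity. Cell 26 detected 4 of the 10 luminal markers and 9.52% of the luminal list, under the threshold of 17.5%. Cells 5, 11, 27, 33 and 43 detected 7, 7, 9, 6 and 9 luminal markers. Of the markers, Dcn was detected in 7 of the other 35 adult luminal cells and the other five markers in 0 of them. All 6 markers had reads in the adult luminal sort, where their sum ran from 0 to 30572 CPM in single cells, and all but Lum had reads in the adult basal sort, where it ran from 0 to 3042.

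Igfbp6 (Entrez 16012, chromosome 15 from 102144186 to 102149512), a binding protein with a preference for IGF2, was detected in 5 of 41 adult luminal cells, and all 5 were fibroblast-marked. Its levels in the 6 marked cells were 405, 70.6, 2533, 210, 640 and 0 CPM in the order of their numbers above, and the other 35 luminal cells had 0 reads. In adult basal cells it was detected in 3 of 85, and cell 64 held 54.6% of its 130 reads. Adult basal over luminal cells gave a log2 ratio of -4.45 (-4.72 to -4.20). Without cells marked for another cell type the luminal sort had no read, and the basal sort at 3.69 CPM was at least 4.69 higher on the log2 scale. In pregnancy it was detected in 4 of 37 basal-class, 5 of 30 mixed-class and 0 of 27 luminal-class cells, and 8 of these 9 cells were fibroblast-marked. Pregnancy cell 5, which detected 6 fibroblast and 0 basal markers, held 83.7% of the basal-class reads. The ratio of the pregnancy basal class to adult basal cells was 4.24 on the log2 scale with all cells and -3.80 (-9.11 to -1.29) without the marked cells, where 1 read remained in pregnancy. The direction of both Igfbp6 comparisons with the adult basal sort was the other way without the marked cells.

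Igfbp4 (Entrez 16010, chromosome 11 from 99040005 to 99052655), a binding protein that is cut by the protease Pappa, showed the same share-out. In the adult luminal sort it was detected in 5 of 41 cells, of which 4 were fibroblast-marked, and the marked cells held 97.6% of its reads (244 CPM in them against 1.09 in the others). In the adult basal sort cell 71 alone, at 2205 CPM, held 81.4% of the reads, and 8 of 85 cells detected the gene. The log2 ratio of the adult sorts was -0.21 (-0.33 to -0.08) with all cells, -1.78 without the cell with most reads on each side and 4.94 without cells marked for another cell type. In pregnancy 11 of 37 basal-class and 11 of 30 mixed-class cells detected it and 0 of 27 luminal-class cells did, with 232, 307 and 0 reads. The basal class was at least 6.75 higher than the luminal class on the log2 scale, and at least 5.56 without the marked cells. Marked cells for any type held 66.4% of the basal-class reads.

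Igfbp7 (Entrez 29817, chromosome 5 from 77349240 to 77408045), a relative that binds IGFs weakly and is abundant in vessels, differed between the stages. In adult basal cells it was spread over many cells, detected in 37 of 85 (43.5%, 32.8 to 54.7) from 0 to 1129 CPM with a median of 5.40, and none of those 37 carried 3 or more markers of another cell type. In adult luminal cells all 532 reads were in 3 cells, all of them fibroblast-marked. Of these, cell 43 held 244 reads and detected 4 of 5 endothelial markers beside 3 of 6 fibroblast markers. The log2 ratio of the adult sorts was 1.59 (1.45 to 1.73), and at least 8.84 without the marked cells. In the pregnancy basal class it was detected in 10 of 37 cells, and cells marked for another type held 86.6% of its reads. Fibroblast-marked cells alone held 42.1%. The log2 ratio of the pregnancy basal class over the adult basal sort was -0.75 (-0.96 to -0.54) with all cells and -3.19 without the marked cells. Endothelial markers summed to 154 CPM in the pregnancy basal class, with all 5 of them present, and to 0.644 in the adult basal sort, where Emcn, Kdr and Cdh5 were at 0. The part of these cells in the Igfbp7 difference was not tested beyond leaving them out. Polr2b and a long non-coding RNA overlap Igfbp7 in the annotation, and use of strand in the counting is not given in the sources used here.

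**Figure D2:**
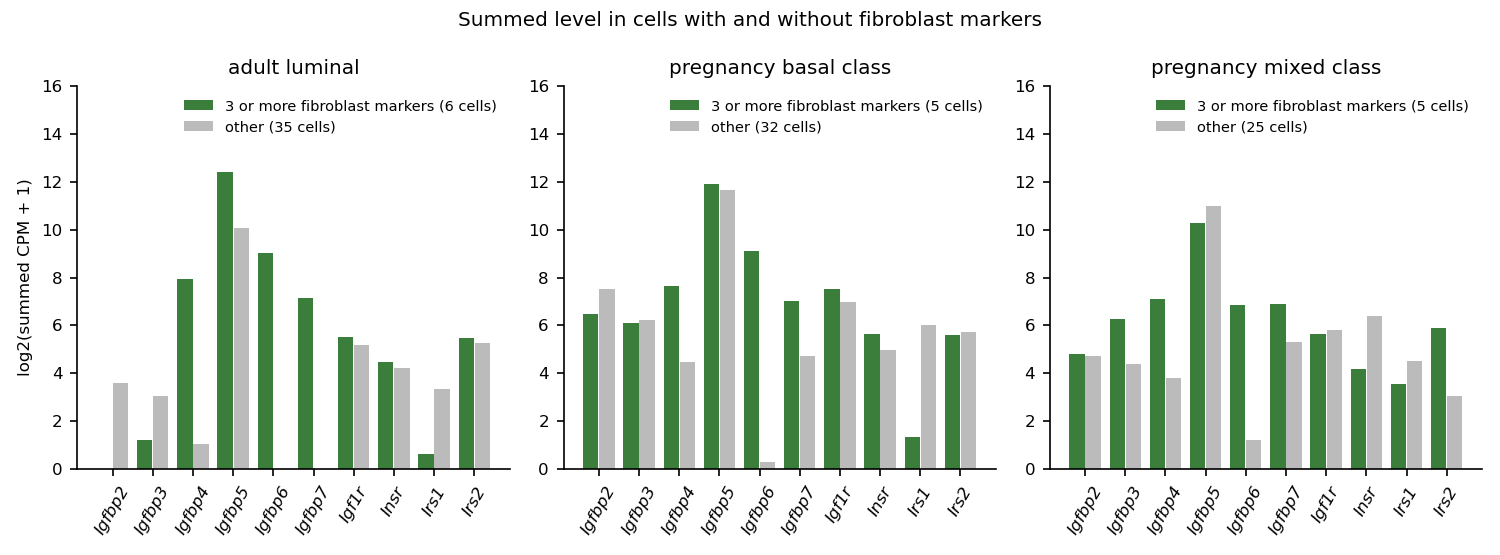
Bars give log2(summed CPM + 1) of the 10 genes in cells with 3 or more fibroblast markers (green) and in the other cells (grey) of the adult luminal sort (6 and 35 cells), the pregnancy basal class (5 and 32) and the mixed class (5 and 25). Igfbp4, Igfbp6 and Igfbp7 stand higher in the green bars of all 3 panels, and Igfbp6 is at 0 in the grey adult luminal bar.

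Cells with a basal profile carried more kinds of binding protein. Of the 85 adult basal cells, 1 detected none of the 6, 15 detected 1, 36 detected 2, 21 detected 3 and 12 detected 4. Of the 41 adult luminal cells, 10 detected none, 24 detected 1, and 3 detected 4. The median was 2 in the adult basal sort, 3 in the pregnancy basal class and 1 in both luminal groups. In the pregnancy basal class 16 of 37 cells detected 2 and 3 cells all 6, while 20 of 27 luminal-class cells detected 1 and 2 detected none. The 3 basal-class cells with all 6 (pregnancy cells 41, 50 and 52) each detected all 6 fibroblast markers, and of the 3 adult luminal cells with 4, cells 27 and 33 were fibroblast-marked and the third was cell 35. Without cells marked for another cell type, a comparison chosen after the data were seen, the medians were again 2 and 1 in the adult sorts and 3 and 1 in the pregnancy basal and luminal classes, and the highest count in the basal class was 4. Of these unmarked cells 69 of 84 adult basal and 1 of 35 adult luminal cells detected 2 or more binding proteins, and 25 of 26 basal-class and 3 of 25 luminal-class cells did.

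**Figure D3:**
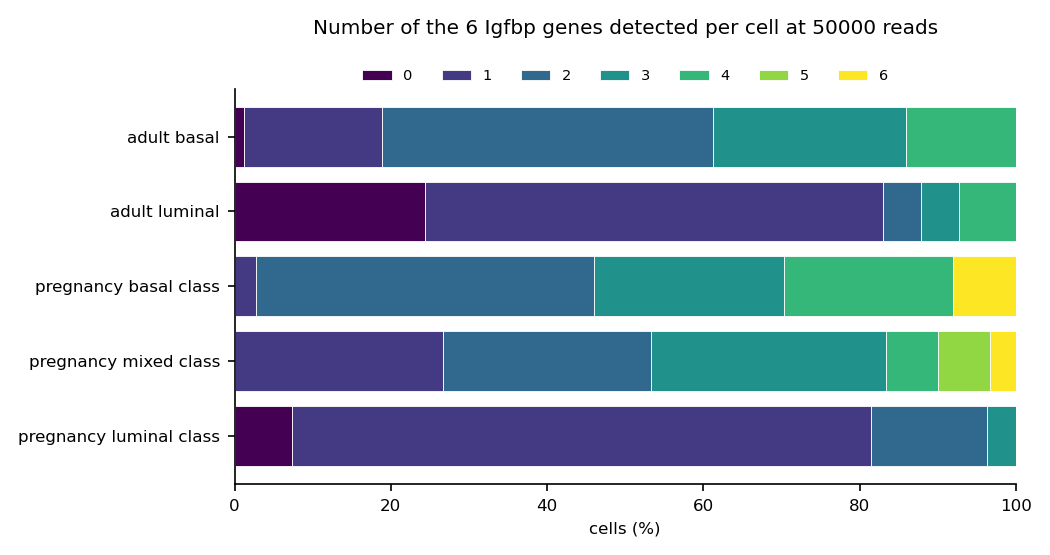
Stacked bars give the percent of cells (x axis) in each group that detected 0 to 6 of the 6 Igfbp genes at 50000 reads (colour). Cells with 1 binding protein are 17.6% of the adult basal sort and 58.5% of the adult luminal sort, and 2.70% and 74.1% of the pregnancy basal and luminal classes.

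Igf1r (Entrez 16001, chromosome 7 from 67952257 to 68233668) had higher summed levels in the basal than in the luminal cells at both stages. In adult basal cells it ran from 0 to 3369 CPM with a median of 46.2, and in adult luminal cells from 0 to 828 with a median of 1.99. Many cells of both sorts were low, but 52 of 85 basal (61.2%, 50.0 to 71.6) and 11 of 41 luminal cells (26.8%, 14.2 to 42.9) detected it. The summed levels were 194 CPM (190 to 199) and 37.0 (34.7 to 39.5), a log2 ratio of 2.39 (2.29 to 2.49). Adult luminal cell 32 held 37.0% of the luminal reads, and without the cell with most reads on each side the ratio was 2.88. In pregnancy 30 of 37 basal-class and 8 of 27 luminal-class cells detected it, at 132 and 7.25 CPM (log2 ratio 4.19, 3.79 to 4.62). The log2 ratio of pregnancy over adult was -2.35 in the luminal lineage (-2.78 to -1.95), or -1.52 with TMM scaling, and -0.55 in the basal lineage (-0.67 to -0.44). The basal value was -0.23 with pregnancy title numbers up to 55 and -1.22 with those above, and also -1.22 with the study's minimums for cells. The mixed class lay between, at 53.9 CPM with detection in 20 of 30 cells. In the annotation 2 non-coding RNAs overlap the gene.

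Insr (Entrez 16337, chromosome 8 from 3150922 to 3279649) did not follow Igf1r. Similar shares of the adult sorts detected it, 17 of 85 basal (20.0%, 12.1 to 30.1) and 8 of 41 luminal cells (19.5%, 8.82 to 34.9). Its level ran from 0 to 610 CPM in adult basal and from 0 to 288 in adult luminal cells, with a median of 0 in both. The summed levels were 34.3 and 18.4 CPM, a log2 ratio of 0.90 (0.74 to 1.05), which stayed between 0.48 and 1.49 when any 1 cell was left out. In pregnancy the order was the other way, with 32.7 CPM in the basal class against 49.5 in the luminal one (log2 ratio -0.60, -0.87 to -0.33) and 75.1 in the mixed class. That ratio ran from -1.47 to 0.22 when any 1 cell was left out, since cell 20 held 46.5% of the basal-class reads and cell 109 held 46.4% of the luminal-class reads. Shares of cells did not separate the classes (13 of 37 and 10 of 27). Insr was the one gene of the 10 with a luminal level in pregnancy more than 2-fold above the adult one, by 1.43 on the log2 scale (1.22 to 1.63). It ran from 0.61 to 2.03 when any 1 cell was left out, and was 0.55 with pregnancy title numbers up to 55 and 1.64 with those above. Per length, Igf1r was above Insr in adult basal cells (16.2 against 3.66 RPKM) and in adult luminal cells (3.09 against 1.97), and below it in the pregnancy luminal class (0.605 against 5.29).

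**Figure D4:**
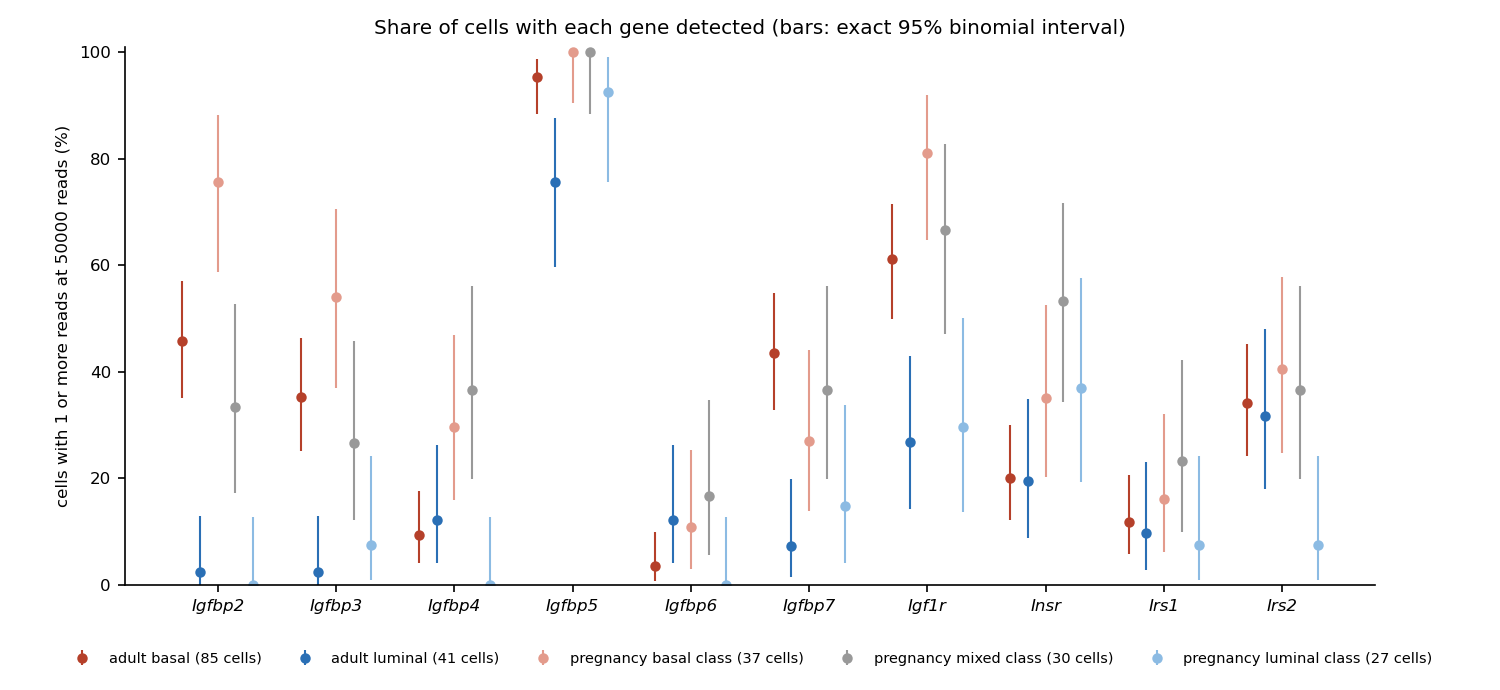
The y axis gives the percent of cells with 1 or more reads of each gene after thinning to 50000 reads, with exact 95% binomial intervals (bars), in the 5 groups named in the key. Igfbp2, Igfbp3 and Igf1r are detected in larger shares of the basal groups than of the luminal groups at both stages, and Insr in similar shares of the pregnancy basal and luminal classes.

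Of the docking proteins, Irs2 (Entrez 384783, chromosome 8 from 10984681 to 11008929) was found in more cells than Irs1 (Entrez 16367, chromosome 1 from 82233105 to 82291439) in all groups but the pregnancy luminal class, where 2 of 27 cells detected each. Irs1 ran from 0 to 1042 CPM in adult basal cells with a median of 0 and was detected in 10 of 85 of them and in 4 of 41 adult luminal cells. The summed levels were 51.0 and 7.97 CPM, a log2 ratio of 2.68 (2.46 to 2.90), but basal cell 13 held 73.9% of the basal reads. The ratio was 0.79 with only that cell left out and 1.80 without the cell with most reads on each side. In the pregnancy basal class cell 20 held 76.4% of the Irs1 reads, and the ratio of the classes of 2.60 (2.22 to 3.00) was 0.55 without it. The shares of cells that detected Irs1 had overlapping intervals in all groups.

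Irs2 was level between the adult sorts and low in luminal cells of pregnancy. In the adult basal sort 29 of 85 cells detected it (34.1%, 24.2 to 45.2), with a range from 0 to 1415 CPM, and in the adult luminal sort 13 of 41 (31.7%, 18.1 to 48.1), with a range from 0 to 492 CPM. The summed levels were 55.3 and 38.0 CPM, a log2 ratio of 0.54 (0.43 to 0.66). In pregnancy 15 of 37 basal-class cells detected it at 51.8 CPM, 11 of 30 mixed-class cells at 14.1 and 2 of 27 luminal-class cells at 6.43. The class ratio was 3.01 (2.56 to 3.49), and 4.10 without the cell with most reads on each side. Pregnancy over adult gave -2.56 in the luminal lineage (-3.02 to -2.14), or -1.73 with TMM scaling. In the basal lineage it gave -0.09 (-0.28 to 0.09). A non-coding RNA overlaps Irs2 in the annotation.

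A gene counts as different below when its summed levels were 4-fold or more apart. Beside each count over all retained cells of the groups stands the share of all genes that passed the same line. No such share is given for counts under other settings. All genes here means the 15314 with 1 CPM or more in 3 or more cells. All 10 genes passed that filter on low values. Between the adult sorts, 4 of the 10 were higher in basal cells (Igfbp2, Igfbp3, Igf1r and Irs1), against 13.8% of all genes, and 1 was lower (Igfbp6), against 21.4%. Of these, Irs1 was at 0.79 without basal cell 13, and fibroblast-marked cells held 100% of the adult luminal reads of Igfbp6. The median log2 ratio of the 10 was 1.27, and that of all genes was -0.32. Without the cells marked for another cell type, 7 were higher and 0 lower. The share of all genes in that set of cells was not computed, so this count cannot be set against a background.

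Between the pregnancy classes 7 of the 10 were higher in the basal class, against 24.5% of all genes, and 0 were lower, against 9.47%. Igfbp5, Igfbp7 and Insr were the ones under 4-fold. Of the 7, Irs1 was at 0.55 without cell 20, and fibroblast-marked cells held 99.7% of the basal-class reads of Igfbp6. The median was 3.60 for the 10 and 0.77 for all genes. From the adult basal sort to the pregnancy basal class 1 of 10 was higher (Igfbp6), against 17.2% of all genes, and 0 were lower, against 9.37%, with a median of 0.05 for the 10 and 0.09 for all genes. That Igfbp6 ratio was -3.80 without cells marked for another cell type. From the adult luminal sort to the pregnancy luminal class 0 were higher, against 7.28%, and 5 were lower (Igfbp2, Igfbp4, Igfbp6, Igf1r and Irs2), against 23.5%, with medians of -2.01 and -0.94. All adult luminal reads of Igfbp2 were in cell 35, and most of those of Igfbp4 and Igfbp6 in fibroblast-marked cells. Without cells marked for another cell type 4 were lower (Igfbp2, Igfbp3, Igf1r and Irs2) and 1 was higher (Igfbp7, by at least 5.13). Igfbp4 was then at -1.31 or lower and Igfbp6 had no ratio, with no read left in either group. The share of all genes was not computed for that set of cells either. TMM, which scales to the bulk of genes instead of all reads, moved every ratio of that comparison by 0.83 towards pregnancy. With it 3 genes were lower and 1 higher, and the share of all genes was not computed. These 4 comparisons share their groups in pairs and are not independent of each other.

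**Figure D5:**
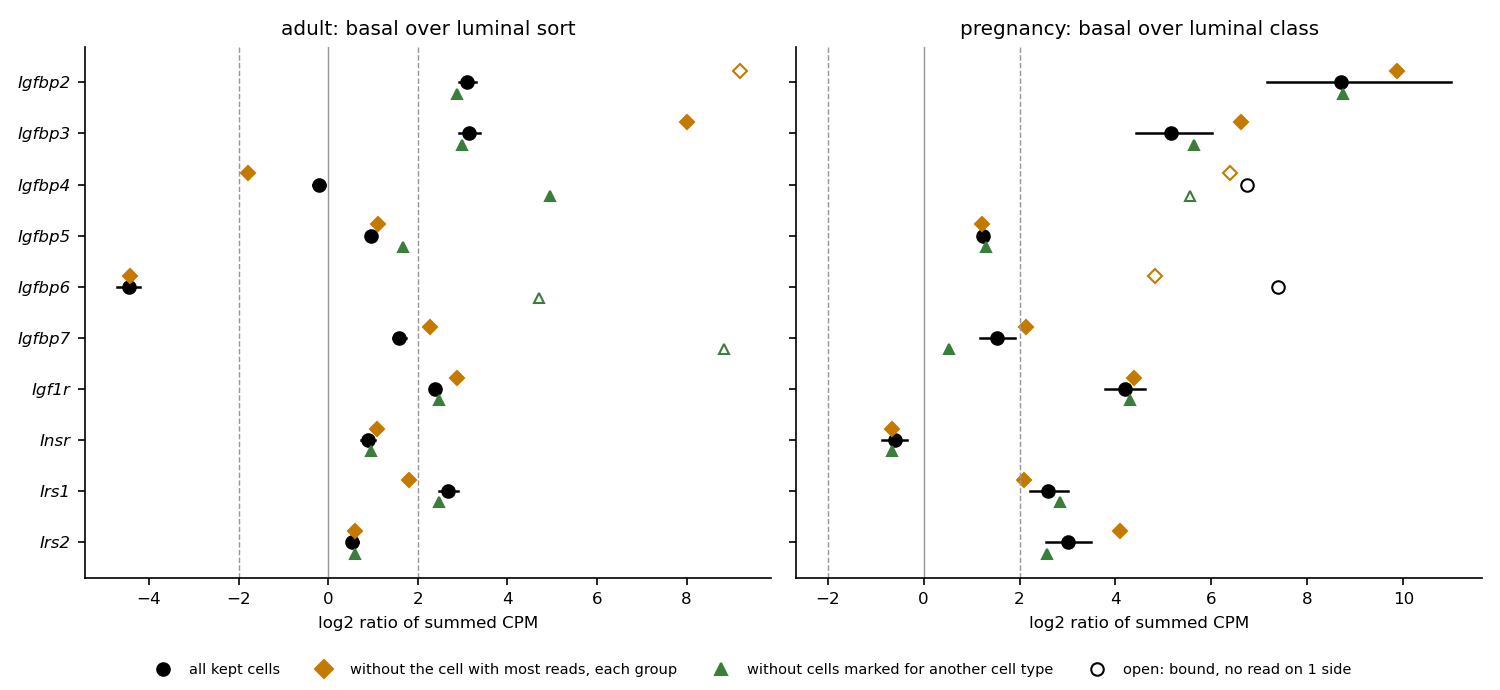
The x axis gives the log2 ratio of summed CPM, basal over luminal, for the adult sorts (left) and the pregnancy classes (right), with exact 95% intervals (lines), values without the cell with most reads in each group (diamonds), values without cells marked for another cell type (triangles) and bounds (open symbols). Dashed lines stand at 4-fold. Igf1r lies past 4-fold in both panels under all 3 settings, and Igfbp6 lies on opposite sides of 0 in the left panel with and without marked cells.

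Within the adult luminal sort, cells were placed on the side of which they detected more markers, mature luminal (hormone-sensing, 23 cells) or progenitor (13 cells), with 5 ties. Of the 41 cells 17 had a difference of 2 or less, so these too are ranges. Igfbp5 was higher on the progenitor side, at 3164 CPM against 636 (log2 ratio of mature over progenitor side -2.31, -2.35 to -2.28), with 12 of 13 and 14 of 23 cells detecting it. Irs2 was also higher there, at 102 against 18.6 CPM (-2.45, -2.66 to -2.25), in 8 of 13 and 5 of 23 cells. Igf1r was at 72.7 CPM on the progenitor side and 19.9 on the mature side (-1.87, -2.08 to -1.66). That ratio was -0.80 without the cell with most reads on each side. Insr was the reverse, with 0 reads on the progenitor side and 445 on the mature side, where 8 of 23 cells detected it and the level was at least 6.00 higher on the log2 scale. A detection of 0 of 13 cells allows a share of up to 23.1% taken as 3 cells, or 24.7% by the exact interval. With the sides set against each other, 4 of the 10 genes were 4-fold or more higher on the mature side, against 20.3% of all genes, and 4 lower, against 10.1%. Of the former, 3 rested on few cells, since all Igfbp2 and nearly all Igfbp3 reads were in cell 35 and Irs1 had 93 reads in all. Of the latter, Igfbp4 and Igfbp6 had 94.1% and 90.3% of their progenitor-side reads in cell 33, which is fibroblast-marked.

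Pregnancy cells numbered up to 55 and above 55 in their titles differed in makeup, a division known from earlier results, and the labels name nothing that divides them there. All 10 fibroblast-marked cells were among the 45 retained cells up to 55 and 0 among the 51 above. Cycling cells were 24 and 2. The basal class over luminal class ratio of Igf1r was 3.65 (3.07 to 4.29) up to 55 and 4.01 (3.43 to 4.64) above, that of Irs2 3.21 and 3.17, and that of Igfbp5 1.17 and 1.23, so these 3 were close in both ranges. Igfbp2 was at least 6.93 higher in the basal class up to 55 and 7.97 (6.41 to 10.3) above. Insr went opposite ways, at 0.64 (0.17 to 1.14) up to 55 and -1.61 (-2.13 to -1.14) above. Igfbp6 had 362 reads in the basal class up to 55 and 1 read above.

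Among 52 other genes of the IGF and insulin pathway, 46 passed the filter on low values. Between the adult sorts 2 of the 52 were 4-fold or more higher in basal cells, against 13.8% of all genes, and 9 lower, against 21.4%, with a median log2 ratio of -0.27 over the 46. Of these, 6 had 20 CPM or more and detection in 20% or more of the cells on the higher side. Stc2, an inhibitor of the binding-protein protease Pappa, had 0 reads in adult basal cells and 118 CPM in luminal cells (24 of 41 detecting), a log2 ratio of -10.46 or lower. Grb14 and Grb10, adaptors that block the insulin and IGF receptor kinases, were at 2.86 against 52.2 CPM (-4.19, -4.50 to -3.90) and 2.02 against 32.6 CPM (-4.01, -4.38 to -3.67). Sh2b1, an adaptor that enhances receptor signalling, was at 2.74 against 29.8 CPM (-3.44) and Eif4ebp1, a repressor of translation under mTOR control, at 5.96 against 31.8 CPM (-2.42). Socs3, a feedback inhibitor of cytokine receptors, was higher in basal cells, at 23.5 against 4.31 CPM (2.44, 2.15 to 2.75).

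In pregnancy the order of Grb14 and Grb10 between the lineages was the other way, at 45.4 CPM in the basal and 0.684 in the luminal class for Grb14 (6.05) and 22.8 against 2.87 for Grb10 (2.99). In the pregnancy basal class, cell 20 held 51.0% of the Grb14 reads. Of the 52 genes 14 were 4-fold or more higher in the basal class, against 24.5% of all genes, and 4 lower, against 9.47%, which is near the background for the higher ones. Named after their values were seen, Pappa and Htra1, secreted proteases that cut binding proteins, had 236 and 174 CPM in the pregnancy basal class and 0 reads in the luminal class, with detection in 19 and 26 of 37 and in 0 of 27 cells. In the adult sorts Pappa was at 48.4 CPM in basal and 23.8 in luminal cells and Htra1 at 41.1 and 23.8. The ligands were sparse. Igf1 had 2.63 CPM in adult basal and 3.22 in adult luminal cells, where cell 33, a fibroblast-marked cell, held 97.5% of its reads. Pregnancy cell 5, also fibroblast-marked, held 66.4% of the Igf1 reads of the pregnancy basal class. Igf2 had 0 reads in adult basal and 151 in adult luminal cells, of which 87.4% were in cell 27, fibroblast-marked as well. Ins1 and Ins2 had 1 and 0 reads in all retained cells.

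The genes whose levels ran most like a binding protein were sought over all 222 retained cells among 5147 genes detected in 20% or more of them. For Igfbp2 these were Mylk, 1600014C10Rik and Acta2 (Spearman rho 0.59, 0.58 and 0.58), of which Mylk and Acta2 are contractile genes of the basal layer. The 3 highest for Igfbp5 were Ecrg4, Pdpn and Tpbg (0.45, 0.41 and 0.38), for Igfbp7 Adamts1, Vim and Timp3 (0.43, 0.40 and 0.39), and for Igfbp3 Moxd1, Apoe and Smim11 (0.42, 0.41 and 0.39). The values are descriptions over cells that share lineage, capture and depth. Igf1r, Insr and Irs2 had no gene at 0.4 or above, and Igfbp4, Igfbp6 and Irs1 were detected in too few cells to be ranked.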

How the data were processed

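Each of the 278 libraries held 1 cell from a Fluidigm C1 capture with Nextera XT library preparation. The authors aligned read pairs to mm10 with Subread (version 1.4.6 in the submitters' processing notes), and featureCounts gave counts per Entrez gene under the RefSeq annotation of Rsubread. The deposited values are these raw counts beside gene lengths, and carry neither normalisation nor UMIs. The series-wide table was not used here.

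A symbol was found in the GRCm38.p6 table (the build of mm10) for 25275 of 27179 IDs. The others (1.20% of reads), 15 mitochondrial (9.54%) and 123 ribosomal genes (1.71%) were removed, which left 25137. Counts were summed per group in Python 3.11.15 (scipy 1.17.1) and compared as ratios of CPM with exact conditional intervals. A side with 0 reads was set at a floor of 3 counts over the group, which makes the ratio a bound, and no ratio was given where both sides had 3 reads or fewer. Thinning was without replacement. "Marked" cells detected 3 or more markers of a fibroblast, endothelial, pericyte, immune, Schwann or adipocyte list. Ratios were tested on simulated Poisson sums without spread between cells, so that test could not cover such spread. The thinning step was tested on some of the retained cells, for its depth and for counts no larger than before. No doublet caller was run. Cell numbers are those of the cell titles.

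The genes, pathway and marker lists and classes were chosen with earlier results of these data known. The study's lineage lists held 200 genes each. Pathway genes were named if 4-fold or more apart between the adult sorts with 20 CPM and detection in 20% of cells on the higher side, and the 3 most similar genes of a member if the highest rho was 0.4 or more. Alternatives were the study's cell minimums, other scalings, thinned counts, other class thresholds, the ranges of title numbers, and leaving out single or marked cells.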

Additional observations from a re-analysis of the deposited data

Results flagged for a closer look

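The basal over luminal ratio went opposite ways at the 2 stages for 3 genes, and these differences were not tested. For Igfbp4 the log2 ratio was -0.21 between the adult sorts and at least 6.75 between the pregnancy classes. For Igfbp6 it was -4.45 and at least 7.39. Fibroblast-marked cells held 97.6% and 100% of the adult luminal reads of Igfbp4 and Igfbp6, and 57.8% and 99.7% of those of the pregnancy basal class. Without all cells marked for another cell type, the adult ratios were 4.94 and at least 4.69. For Insr it was 0.90 and -0.60, and left-out single cells took the pregnancy value from -1.47 to 0.22.

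Insr also went opposite ways within pregnancy, and this was not tested. The log2 ratio of the basal over the luminal class was 0.64 in cells with title numbers up to 55 (132 and 51 reads) and -1.61 in those above 55 (40 and 311 reads). Cell 20 holds 80 of the former reads.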

How the results depend on the processing

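Each value rests on summed counts of 1 sample a group, and intervals cover counting error only. Of the log2 ratios recomputed, 203 stayed within the interval of the value above, 304 moved out of it and 5 ratios of 4-fold or more changed sign. The sign also changed 28 times among 12 ratios under 4-fold, such as Igfbp4 between the adult sorts (to 4.94), Igfbp7 in the pregnancy luminal class over adult luminal cells (to 5.13, a bound) and Insr and Irs1 in the pregnancy basal class over adult basal cells (from -0.87 to 0.89 and from -0.72 to 1.86). Of the counts of genes past 4-fold, 89 stayed within 1.5 times and 17 moved, and of the shares of cells under other detection rules 28 stayed within their interval and 32 moved. No share of all genes was computed for the counts under these alternatives, so they cannot be set against a background. Without marked cells, adult basal cells had 7 genes higher and 0 lower than luminal cells. The pregnancy basal class then had 0 higher and 2 lower than adult basal cells, and the pregnancy luminal class 1 higher than adult luminal cells. The values of 4-fold or more that reversed there were Igfbp6 in adult basal over luminal cells (4.69, a bound), Igfbp6 in the pregnancy basal class over adult basal cells (-3.80) and Igfbp4 on the mature over the progenitor side (1.40). With title numbers above 55, 0 genes were higher and 2 lower in the pregnancy basal class than in adult basal cells, and Igfbp6 reversed to -2.96 on 1 read. Without the cell with most reads in each group that comparison had 2 higher. On the mature over the progenitor side there were then 2 higher, and Igfbp3 reversed to -0.50, a bound. Thinned counts gave 1 higher there. For the pregnancy luminal class over adult luminal cells, TMM scaling gave 1 higher and 3 lower, leaving milk genes out of the total gave 1 and 3, and thresholds at the 25th percentile gave 3 lower. The causes were not tested beyond what each alternative left out. TMM shifted the 5 comparisons by -0.30, 0.65, 0.11, -0.83 and 0.09 in log2. The classes held 55 and 22 cells with the study's minimums and 51 and 18 with the 25th percentile. Single cells were left out in turn for each ratio, and the ranges stand beside the genes they changed most. No paired analysis was possible because the numbers in the titles name cells, not replicates, and no test was run.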
